A study of Drosophila melanogaster with 28 samples.

Results

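HMR-FL cells were profiled with both antibodies on chromatin of the same input. The data described here are the 8 peak lists of these paired precipitations among the 18 lists of the series. SL2 cells, a line from late Drosophila melanogaster embryos, carried a stably integrated FLAG-HA tagged full-length HMR (pMT HMR-FL-FLAG-HA) and, per the study's methods, Myc-tagged LHR. The metallothionein promoter of the pMT vector drove the transgene, which was induced with 250 µM CuSO4. All 8 libraries came from cells with this construct and this treatment, and the cells also kept their own HMR. Chromatin preparations AL03, AL18, AL55 and AL63, named by their input, each had 1 anti-FLAG and 1 anti-HMR library. This set 4 anti-FLAG libraries against 4 anti-HMR libraries, paired by the input identifier in the labels. Libraries with the same identifier were taken as precipitations from 1 preparation. Members were taken by construct, antibody and chromatin alone. No measured value entered this rule, though it was set with earlier results of these data known. The study describes its FLAG-HMR ChIP-seq replicates as biological. The labels do not say whether the 4 preparations were separate cultures, so the p-values measure the spread between these preparations. The p-values of 4 anti-FLAG against 4 anti-HMR libraries treat the libraries as unpaired. With 4 pairs, a test that keeps the pairing by chromatin cannot give a p under 0.05. The line is 1 stable transfection as far as the sources tell. HMR-dC cells, which carried the C-terminally truncated construct under the same promoter and induction, served as libraries that the regions described here had not been chosen on and for comparing the antibody difference between constructs.

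HMR is a chromatin protein of the MADF and BESS family that is known for its part in the lethality of hybrid males between Drosophila species. It binds LHR, which in turn binds the heterochromatin protein HP1a, and it is found at centromeres, in pericentromeric chromatin and at many sites on the arms next to insulator proteins. The anti-FLAG antibody recognises only the tagged transgene product. The anti-HMR antibody recognises the tagged and the endogenous protein, which cannot be told apart in its lists. A region called with one antibody and not with the other can therefore reflect the protein, the antibody or the calling threshold, and these cannot be told apart in lists of positions.

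A few sequences show what the 2 kinds of list contain. The stretch upstream of MtnA, which encodes a copper-induced metallothionein, stood at the top of the anti-FLAG lists and is shown from its minus strand (chr3R:9784371-9784603), with capitals at the TGCNCNC core of metal response elements on either strand. The klar gene encodes a protein that links nuclei to microtubules, and its coding exons hold a neighbouring pair of regions, 1 called by anti-FLAG alone (chr3L:506092-506311) and 1 called by anti-HMR alone (chr3L:505725-505949). The pericentromeric region with the best mean position among those called in 3 or 4 anti-FLAG lists and in no anti-HMR list lay between genes near RpL15 (chr3L:27262049-27262266). An anti-HMR region of chromosome 4 near Asator (chr4:490100-490396), and a region near upd2 that stood far higher in the anti-HMR than in the anti-FLAG lists (chrX:18239366-18239605), show the TGCATA core. A region between genes in the pericentromeric part of 3R was among the top lines of the anti-FLAG lists (chr3R:3374251-3374477) and held none of the 6 motifs searched. These are plus-strand RefSeq sequences of dm6 except for MtnA, and capitals mark CGATA (bound by BEAF-32), TATCGATA (the DRE), GAGAG (GAGA factor), TGCATA (the Su(Hw) core), GGTCACACT (the core of Motif 1) or AGNNGGCGC (the CTCF core) on either strand.
MtnA upstream stretch: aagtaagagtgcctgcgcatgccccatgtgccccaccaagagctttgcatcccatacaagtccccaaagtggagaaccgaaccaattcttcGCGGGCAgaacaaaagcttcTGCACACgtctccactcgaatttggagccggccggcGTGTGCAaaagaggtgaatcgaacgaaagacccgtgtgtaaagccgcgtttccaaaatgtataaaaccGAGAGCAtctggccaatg
klar, anti-FLAG alone: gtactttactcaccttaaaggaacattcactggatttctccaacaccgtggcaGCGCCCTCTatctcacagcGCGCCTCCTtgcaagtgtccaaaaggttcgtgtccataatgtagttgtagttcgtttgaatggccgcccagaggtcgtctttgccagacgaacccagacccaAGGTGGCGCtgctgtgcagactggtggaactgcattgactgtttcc
klar, anti-HMR alone: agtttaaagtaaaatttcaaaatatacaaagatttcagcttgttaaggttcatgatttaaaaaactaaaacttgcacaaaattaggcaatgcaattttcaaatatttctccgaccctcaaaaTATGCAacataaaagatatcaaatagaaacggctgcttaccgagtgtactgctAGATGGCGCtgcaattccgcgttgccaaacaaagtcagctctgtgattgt
RpL15 neighbourhood, anti-FLAG: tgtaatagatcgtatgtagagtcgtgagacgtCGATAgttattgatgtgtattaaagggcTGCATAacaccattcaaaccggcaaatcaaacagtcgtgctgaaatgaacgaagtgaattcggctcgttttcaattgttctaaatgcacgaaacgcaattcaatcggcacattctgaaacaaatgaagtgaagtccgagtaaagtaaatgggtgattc
Asator neighbourhood, anti-HMR: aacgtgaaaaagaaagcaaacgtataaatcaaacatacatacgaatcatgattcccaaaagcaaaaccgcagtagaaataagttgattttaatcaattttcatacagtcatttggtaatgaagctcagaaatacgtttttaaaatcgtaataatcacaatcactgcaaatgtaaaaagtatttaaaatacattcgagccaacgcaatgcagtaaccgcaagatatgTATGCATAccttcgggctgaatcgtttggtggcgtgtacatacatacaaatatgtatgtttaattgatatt
upd2 neighbourhood, higher in anti-HMR: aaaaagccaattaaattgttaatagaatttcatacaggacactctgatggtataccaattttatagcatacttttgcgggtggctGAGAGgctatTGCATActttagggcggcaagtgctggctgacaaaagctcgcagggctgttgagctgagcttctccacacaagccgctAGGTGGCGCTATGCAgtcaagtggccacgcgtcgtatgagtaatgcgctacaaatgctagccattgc
3R pericentromeric, all lists: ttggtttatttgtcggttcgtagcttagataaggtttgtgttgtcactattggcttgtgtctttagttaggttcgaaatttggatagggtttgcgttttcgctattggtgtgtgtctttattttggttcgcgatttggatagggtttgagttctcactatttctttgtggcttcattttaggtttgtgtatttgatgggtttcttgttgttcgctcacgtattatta
The MtnA stretch held 4 TGCNCNC matches, a motif present in 26.1% of all 200 bp windows of the genome. The klar region of anti-FLAG held 3 matches to AGNNGGCGC, the core of the CTCF motif, which 1.74% of windows hold. The klar region of anti-HMR held 1 AGNNGGCGC and 1 TGCATA, and the upd2 region held 1 AGNNGGCGC and 2 TGCATA. The 2 TGCATA matches on chromosome 4 overlap each other on opposite strands. A match describes letters and is no evidence of binding.

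The lists differed widely in length. Anti-FLAG gave 2354 peaks from chromatin AL03, 465 from AL18, 4427 from AL55 and 2457 from AL63. Anti-HMR gave 2858, 1150, 9049 and 1496 peaks from the same preparations. The number of peaks differed by less than the spread between preparations (2426 ± 1618 with anti-FLAG against 3638 ± 3682 with anti-HMR, n = 4 libraries each, exact permutation p = 0.714). Unless stated otherwise, ± gives the SD over 4 libraries and p comes from the exact permutation test of 4 against 4 libraries, two-sided, over all 70 splits. The read depth behind each list is unknown. The comparisons of shares over all peaks were therefore repeated on lists cut to their first 465 lines. This is the length of the shortest list, and the line order was taken as the rank. Motif shares split by gene start, single transposable element families and construct differences other than the pericentromeric one are given for whole lists only. The lists hold no score, and whether their order is that of the caller's score is not given in the sources used here.

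Peaks at gene starts took a larger part of every anti-FLAG list than of any anti-HMR list. The share of peaks whose midpoint lay within 200 bp of an annotated transcript start was 70.2% in anti-FLAG AL03, 63.2% in AL18, 71.0% in AL55 and 69.9% in AL63. It was 52.7%, 34.9%, 32.3% and 52.1% in the anti-HMR lists of the same preparations. The groups did not overlap, the anti-FLAG lists were alike and the whole anti-HMR lists split into a higher pair and a lower pair. The means were 68.6% ± 3.60 and 43.0% ± 10.9 (SD, n = 4 each), a difference of 25.6 percentage points in the same direction in 4 of 4 preparations. A test that pairs the libraries by chromatin has 16 sign patterns, of which 2 are as extreme as this one, so it cannot reach 0.05 here for any measure. The exact permutation p was 0.02857, the smallest that 70 splits can give, and 0.05714 after adjustment over the 4 annotation measures. Both groups stood far above the 6.05% of genome windows. The shortest list, anti-FLAG AL18, bounds this share between 58.8% and 67.5%, and the longest, anti-HMR AL55, between 31.4% and 33.3% (Wilson 95% intervals, which cover counting error only). Over the first 465 lines the anti-HMR shares were 50.3%, 36.1%, 61.5% and 52.7%, so that AL55 stood highest of them and AL18 alone stayed low. All 4 were under the 63.2% of anti-FLAG AL18, and the difference in means was 17.4 points (exact permutation p = 0.02857).

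Peaks near starts on both strands, called divergent starts here without a check of their orientation, showed the same order. Peaks with a start on each strand within 500 bp made up 34%, 26.9%, 31.5% and 30.7% of the anti-FLAG lists of AL03, AL18, AL55 and AL63. They made up 25.2%, 14.0%, 13.9% and 20.9% of the anti-HMR lists. The groups did not overlap (30.8% ± 2.94 against 18.5% ± 5.54, exact permutation p = 0.02857, adjusted 0.05714), against 1.61% of windows. With any 1 anti-FLAG list left out the difference was between 11.2 and 13.6 points and the exact permutation p 0.0571. With starts required within 250 bp on each strand the difference was 6.99 points and the exact permutation p was 0.0571. The share of peaks between genes (30.3% ± 9.97 against 33.5% ± 4.86, exact permutation p = 0.60), the share on annotated transposable elements (2.80% ± 0.459 against 2.78% ± 0.555, exact permutation p = 0.943) and the GC content (39.5% ± 0.828 against 39.2% ± 1.18, p = 0.771) differed by less than the spread between preparations. In the upper 50% of each list the transposable element share was lower with anti-FLAG, with a difference of -0.797 points (exact permutation p = 0.02857).

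**Figure D1:**
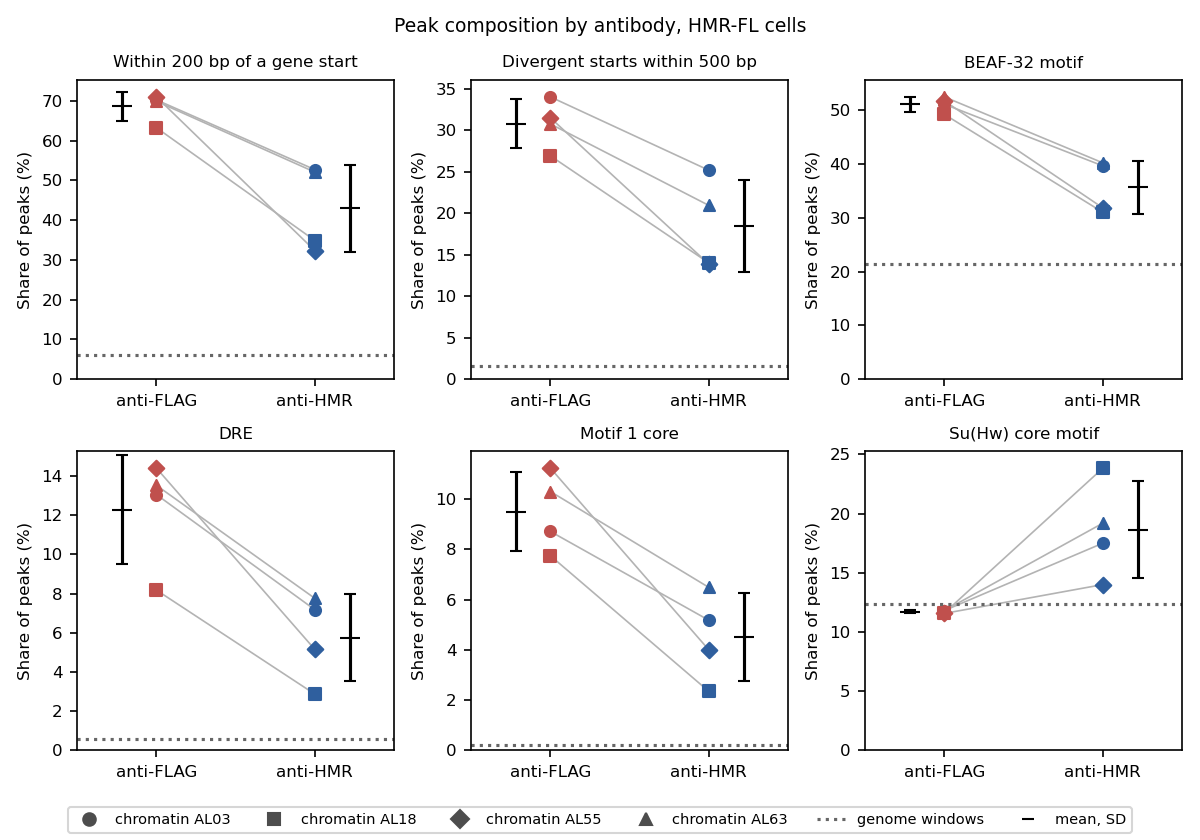
Share of peaks (%) at gene starts, at divergent starts and with each of 4 motifs in the 8 lists, with anti-FLAG and anti-HMR points of 1 chromatin joined by a line. Black bars give mean ± SD (n = 4), the dotted line gives the share of 200 bp genome windows, and in each panel no anti-FLAG value overlaps the anti-HMR values.

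Motifs of promoter and insulator proteins separated the antibodies. CGATA, the element bound by the insulator protein BEAF-32, occurred in 51.2%, 49.2%, 51.8% and 52.5% of anti-FLAG peaks and in 39.7%, 31.0%, 31.9% and 40.2% of anti-HMR peaks (AL03, AL18, AL55 and AL63 in each case). The anti-FLAG lists varied by a few points, and every one stood above every anti-HMR list. The means were 51.2% ± 1.39 and 35.7% ± 4.93, against 21.4% of windows (exact permutation p = 0.02857, adjusted over the 6 motifs 0.0429). TATCGATA, the DNA replication-related element (DRE) bound by Dref, which contains CGATA, was found in 12.3% ± 2.79 of anti-FLAG and 5.74% ± 2.21 of anti-HMR peaks (exact permutation p = 0.02857, adjusted 0.0429), against 0.562% of windows. GGTCACACT, the core of Motif 1 bound by the promoter factor M1BP, was found in 9.49% ± 1.56 and 4.50% ± 1.76 (exact permutation p = 0.02857, adjusted 0.0429), against 0.200% of windows. All 3 motifs were more frequent with anti-FLAG in 4 of 4 preparations. Without any 1 of the anti-HMR lists the exact permutation p for TATCGATA was 0.0571, and likewise for GGTCACACT without anti-FLAG AL55.

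TGCATA went the other way. This is the core of the site bound by Su(Hw), the zinc finger protein of the gypsy insulator. It lay in 11.8%, 11.6%, 11.6% and 11.8% of anti-FLAG peaks and in 17.5%, 23.8%, 14.0% and 19.2% of anti-HMR peaks. The anti-FLAG lists were nearly identical and stood just under the 12.4% of genome windows, whereas all 4 anti-HMR lists stood above it (11.7% ± 0.127 against 18.6% ± 4.08, exact permutation p = 0.02857, adjusted 0.0429). With any 1 anti-FLAG list left out the difference stayed between -6.97 and -6.88 points and the exact permutation p was 0.0571. GAGAG, the element of GAGA factor, was present in 14.6% ± 1.86 and 16.8% ± 2.76 (exact permutation p = 0.286), both under the 21.5% of windows. AGNNGGCGC was present in 8.43% ± 2.2 and 6.05% ± 2.47 (exact permutation p = 0.229), both above the 1.74% of windows. Neither differed beyond the spread between preparations over the whole lists.

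Since anti-FLAG lists held more gene starts, the motif shares were also taken separately for peaks within 200 bp of a start and for all others, a split chosen after the data had been seen. CGATA remained more frequent with anti-FLAG in both parts, with 59.9% ± 1.76 against 49.9% ± 4.97 at starts and 32.6% ± 3.89 against 24.6% ± 0.959 elsewhere (exact permutation p = 0.02857 in each, adjusted 0.0686 over 12 tests). TATCGATA (15.0% ± 3.08 against 10.8% ± 2.94) and GGTCACACT (12.8% ± 2.04 against 9.71% ± 2.42) no longer differed beyond their spread at starts (exact permutation p = 0.114 in each), while away from starts both were more frequent with anti-FLAG (exact permutation p = 0.02857, adjusted 0.0686). For TGCATA the values were 9.98% ± 0.551 against 11.4% ± 1.22 at starts and 15.6% ± 1.42 against 24.4% ± 6.11 elsewhere (exact permutation p = 0.0857 in each). Away from starts TGCATA lay in 14.8%, 14.0%, 17.3% and 16.1% of anti-FLAG peaks and in 24.1%, 29.6%, 15.9% and 27.9% of anti-HMR peaks, so that the long anti-HMR list of AL55 alone fell among the anti-FLAG values. AGNNGGCGC, which had not differed over all peaks, lay in 15.7%, 21.1%, 13.6% and 16.5% of anti-FLAG peaks away from starts and in 8.28%, 6.81%, 3.51% and 13.2% of anti-HMR peaks there. These groups did not overlap (16.7% ± 3.14 against 7.96% ± 4.05, exact permutation p = 0.02857, adjusted 0.0686).

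Territories on the chromosomes differed at the top of the lists, and over whole lists the differences were within the spread between preparations. Pericentromeric chromatin was taken as 2L from 21 Mb, 2R up to 5.6 Mb, 3L from 22 Mb and 3R up to 4.1 Mb. It held 9.22% ± 1.57 of anti-FLAG and 10.5% ± 2.52 of anti-HMR peaks in the whole lists (exact permutation p = 0.486), and chromosome 4, which is largely heterochromatic, held 2.00% ± 0.313 and 2.44% ± 0.820 (exact permutation p = 0.371). Among the first 465 lines, pericentromeric peaks made up 11.4%, 11.4%, 8.82% and 11% of the anti-FLAG lists and 22.2%, 18.1%, 16.6% and 15.1% of the anti-HMR lists, which did not overlap (exact permutation p = 0.02857). Chromosome 4 made up 2.80%, 2.37%, 2.58% and 3.01% against 7.10%, 5.38%, 6.24% and 5.38% of these lines (exact permutation p = 0.02857). Among the first 100 lines the pericentromeric count was 7, 9, 6 and 4 with anti-FLAG and 54, 25, 31 and 21 with anti-HMR. The first lines of the anti-HMR lists thus held more pericentromeric sites (32.8% ± 14.8 against 6.50% ± 2.08, exact permutation p = 0.02857), and AL03 stood highest. Genome windows hold 13.3% pericentromeric and 0.971% chromosome 4 sequence. The p-values for the cut lists, here and for the arms and X below, are not adjusted over the 4 position classes. The cut to 100 lines was chosen after the data had been seen.

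The arms of chromosomes 2 and 3 outside these territories held 84.5% ± 1.91 of the first 100 anti-FLAG and 57.0% ± 15.0 of the first 100 anti-HMR lines (exact permutation p = 0.02857), but 68.6% ± 4.71 and 71.7% ± 4.97 of the whole lists (exact permutation p = 0.40). X peaks were sparse at the top of all 8 lists, with 3 to 9 of the first 100 lines, and more frequent over whole lists. They made up 19.2%, 24.3%, 18.1% and 18.5% of the whole anti-FLAG lists and 15.5%, 16.3%, 10.8% and 18.2% of the anti-HMR lists. The share was higher with anti-FLAG in 4 of 4 preparations, but the groups overlapped (20.0% ± 2.88 against 15.2% ± 3.13, exact permutation p = 0.05714, adjusted 0.229). Without anti-HMR AL63 the difference was 5.81 points and the exact permutation p 0.02857. In anti-FLAG AL18 it went from 8.50% of the first 200 lines to 24.3% of all 465. The gene start difference was present at every length, with 66.2% ± 4.72 against 45.5% ± 16.4 of the first 100 lines (exact permutation p = 0.02857).

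**Figure D2:**
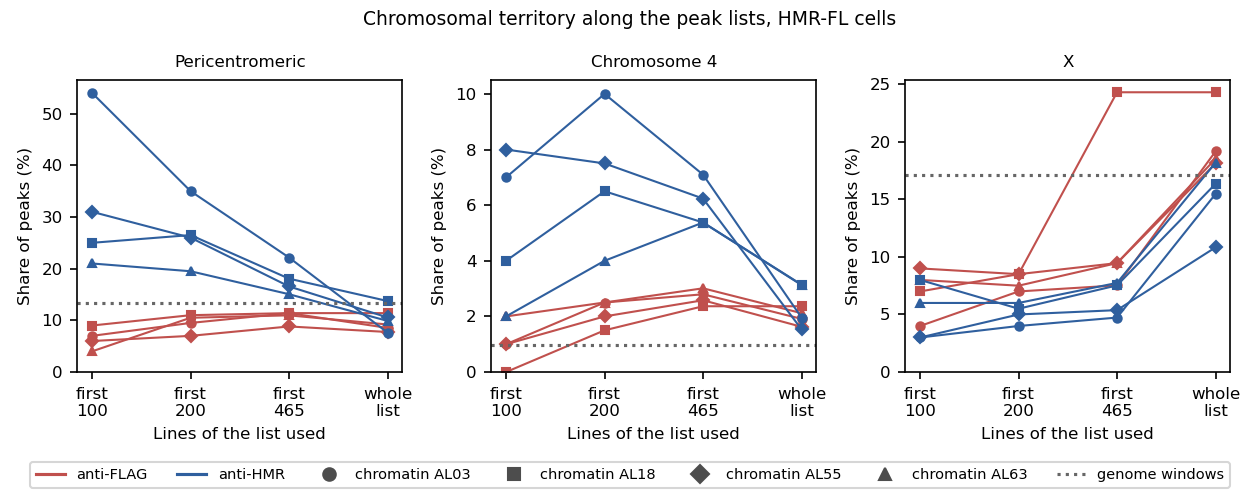
Share of peaks (%) in pericentromeric chromatin, on chromosome 4 and on X among the first 100, 200 and 465 lines and in the whole list, with 1 line per list. At 100 lines the anti-HMR lists hold 21 to 54 pericentromeric peaks and the anti-FLAG lists 4 to 9, and the 2 antibodies meet in the whole lists (9.22% and 10.5%).

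Joining peaks of the 8 lists wherever they shared 1 bp or more gave 10763 regions, the widest of 810 bp. Anti-FLAG called 4525 of them and anti-HMR 9661, with 3423 called by both, which is 75.6% of the anti-FLAG and 35.4% of the anti-HMR regions. As many as 6559 regions came from a single list, and 5315 of these from anti-HMR AL55, where they made up 58.7% of the list. All 8 lists shared 226 regions.

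At equal length the lists resembled each other by antibody more than by chromatin. Over the first 465 lines the Jaccard index, the shared part of the regions of 2 lists, averaged 58.3% between anti-FLAG lists of different preparations (43.7% to 78.2%, 6 pairs) and 47.0% between anti-HMR lists (31.4% to 60.3%, 6 pairs). It averaged 30.1% between the antibodies on the same chromatin (9.41% to 44.2%, 4 pairs) and 26.9% between the antibodies on different chromatin (11% to 44.6%, 12 pairs). Over whole lists, whose lengths differ, the order was another one for anti-HMR, with 37.8% between anti-FLAG lists and 28.8% between anti-HMR lists of different preparations against 34.4% between the antibodies on the same chromatin. The anti-HMR lists of AL55 and AL63 shared more with anti-FLAG than those of AL03 and AL18 did. Anti-HMR AL18 had an index of 9.41% with anti-FLAG of its own chromatin, whereas anti-HMR AL55 had 44.2% with its own. The mean index of the 4 same-chromatin pairs was the highest among all 24 assignments of anti-HMR to anti-FLAG lists, both in the whole lists (34.4% against a mean of 26.9%) and at equal length (30.1% against 27.7%, exact one-sided permutation p = 0.0417 in each, the smallest it can give). Without any 1 preparation the smallest p is 0.167. At equal length the pairs differed. Anti-HMR AL18 shared less with anti-FLAG of its own chromatin (9.41%) than with the other anti-FLAG lists (11% to 12.6%). Anti-HMR AL55 shared more with anti-FLAG AL63 (44.6%) than with its own (44.2%). Anti-HMR AL03 and AL63 shared most with their own. Over whole lists the index is also bounded by list length, and with both antibodies AL18 gave the shortest list and AL55 the longest. Shared chromatin and list length were not tested apart.

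**Figure D3:**
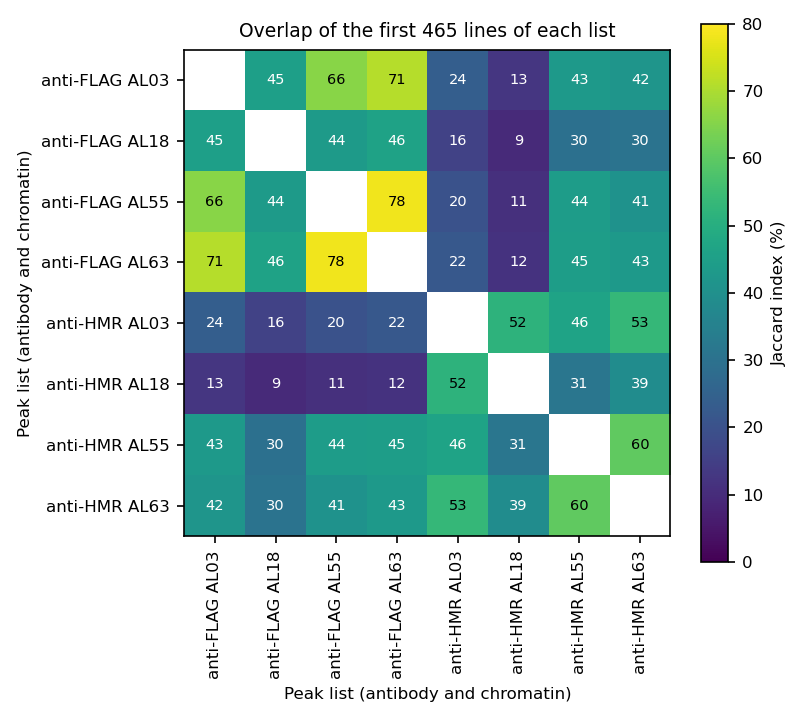
Jaccard index (%) between the first 465 lines of each pair of lists, by antibody and chromatin. The anti-FLAG block averages 58.3%, the anti-HMR block 47.0%, and the squares between the antibodies range from 9.41% for chromatin AL18 to 44.6%.

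Regions specific to an antibody were mostly anti-HMR regions. Of the 10763 regions, 166 (1.54%) were called in 4 of 4 anti-HMR and 0 of 4 anti-FLAG lists and 1 (0.00929%) in 4 of 4 anti-FLAG and 0 of 4 anti-HMR lists. Fisher's exact test gave an unadjusted p of 0.02857 for each of these 167 regions, and no region (0%) had an adjusted p under 0.05, the smallest being 1. The counts move with list length, since a region absent from the anti-FLAG AL18 list of 465 peaks cannot be called in 4 of 4. Without that list 74 regions were called by anti-FLAG alone, 8 without anti-HMR AL55, 4 without anti-FLAG AL63, and 2 without anti-FLAG AL03 or anti-HMR AL63. The count for anti-HMR alone was 263 without anti-FLAG AL55 and 260 without anti-HMR AL63. Over the first 465 lines of all lists, 1157 regions resulted, of which 29 (2.51%) were called by anti-FLAG alone and 92 (7.95%) by anti-HMR alone. Allowing 3 or 4 lists against 0, 77 regions (0.715%) were anti-FLAG regions and 298 (2.77%) anti-HMR regions. Joining regions across gaps of up to 500 bp, a choice made after the data had been seen, left no region to anti-FLAG alone. A peak of the other antibody lay within 500 bp of 20.8% of the 77 and of 8.39% of the 298 regions.

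The region of anti-FLAG alone was the klar exon region whose sequence is shown above, at lines 34, 23, 9 and 16 of the anti-FLAG lists of AL03, AL18, AL55 and AL63. The best placed region of anti-HMR alone lay 142 bp from it in the same gene, at lines 29, 8, 29 and 22 of the anti-HMR lists. Both antibodies therefore called klar near the top of every list, but at peaks that did not overlap. The other leading anti-HMR regions lay between genes near CG12617 (chr2L:20290627-20291073, lines 14, 7, 197 and 14) and near Cpr62Bc (chr3L:1839507-1839734, lines 9, 27, 59 and 17). Another covered the 5′ end of Gycalpha99B, a subunit of soluble guanylyl cyclase (chr3R:29682486-29682718, lines 46, 35, 35 and 8). The leading one on X lay at the 3′ end of Rab35, a membrane traffic GTPase (chrX:20156157-20156395, lines 24, 9, 240 and 24). The region near Asator on chromosome 4, whose sequence is given above, was at lines 213, 189, 877 and 359, and the leading pericentromeric one, in lncRNA:CR45661 (chr3L:22909341-22909836), at lines 462, 187, 1812 and 589.

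Leading anti-FLAG regions with 3 lists against 0 stood lower. They lay at the start of drongo (chr2L:851006-851237, lines 323, 139 and 229 of AL03, AL55 and AL63), in an intron of ova, which encodes an adaptor of HP1a (chr2L:10230536-10230921, lines 371, 711 and 651), and at the start of ck, the myosin VIIa gene (chr2L:15057814-15058043, lines 798, 847 and 736). The pericentromeric region near RpL15 was at lines 695, 893 and 519. The leading X region lay in the 5′ part of D2hgdh, which encodes D-2-hydroxyglutarate dehydrogenase (chrX:2141969-2142251), at lines 1516, 242 and 3445 of AL03, AL18 and AL55. None of these was among the 465 peaks of anti-FLAG AL18 except the last.

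The 2 sets of regions differed in composition, which is given as a description because the same lists chose them. Of the 298 anti-HMR regions, 11.4% lay at a gene start, 35.9% held TGCATA, 21.8% held CGATA, 1.68% were pericentromeric and 83.6% lay on the arms of chromosomes 2 and 3. Of the 77 anti-FLAG regions, 67.5% lay at a gene start, 11.7% held TGCATA, 68.8% CGATA and 24.7% TATCGATA. Of these 77, 16.9% were pericentromeric, 41.6% lay on X and 41.6% on the arms. For all 10763 regions these shares were 35.7% at gene starts, 13.9% with TGCATA, 34.6% with CGATA, 6.37% with TATCGATA, 12.9% on X, 10.9% pericentromeric and 74.7% on the arms. Among the 92 anti-HMR regions of equal list length 22.8% were pericentromeric and 8.70% on chromosome 4, against 12.1% and 3.80% of all 1157 regions there. Of the 53 regions shared by all lists at that length 30.2% were pericentromeric and 5.66% lay on chromosome 4, and 13.8% of the 29 anti-FLAG regions were pericentromeric. All 21 pericentromeric and all 8 chromosome 4 regions among these 92 were called in at least 1 whole anti-FLAG list, below its first 465 lines or in part of the lists. The 226 shared regions included 62.0% at gene starts and 16.4% pericentromeric ones, and 13.7% held AGNNGGCGC, against 3.61% of all regions.

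Order among the 226 shared regions was compared on a scale from 0 for the top to 100 for the bottom. The 4 anti-FLAG positions all lay above the 4 anti-HMR positions in 36 regions (15.9%), and the reverse held in 41 (18.1%). By the exact permutation test with Benjamini-Hochberg adjustment none (0%) passed 0.05 (smallest adjusted p = 0.0839), and 77 had an unadjusted p of 0.02857. Without anti-FLAG AL18 the lists shared 443 regions, of which 148 lay higher with anti-FLAG and 111 higher with anti-HMR. Spearman's rho across these regions, which are not independent replicates, had a median of 0.897 between anti-FLAG lists (0.826 to 0.954), 0.806 between anti-HMR lists (0.698 to 0.869) and 0.560 between the antibodies on the same chromatin (0.442 to 0.783).

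Shared regions of pericentromeric chromatin and chromosome 4 stood higher in the anti-HMR order. The 37 pericentromeric regions had mean positions of 55.4, 52.9, 61.9 and 58.3 in the anti-FLAG lists of AL03, AL18, AL55 and AL63, and of 25.1, 25.0, 35.1 and 40.5 in the anti-HMR lists (exact permutation p = 0.02857, adjusted over 13 classes 0.0619). In 20 of the 37 every anti-HMR position was above every anti-FLAG position, and in 2 the reverse held. The 6 regions of chromosome 4 averaged 55.2 ± 2.2 with anti-FLAG and 24.9 ± 7.81 with anti-HMR (SD, n = 4 lists, exact permutation p = 0.02857), and 4 of them, at Hcf, ND-49, Gyf and Zyx with apolpp, separated completely. The 32 regions with TGCATA stood at 60.9 ± 0.954 against 47.0 ± 2.05 (exact permutation p = 0.02857). All 3 had an adjusted p of 0.0619. The same exact permutation and adjusted p were found for the arms and for 2 further motifs. The 107 regions with CGATA stood at 47.0 ± 0.832 with anti-FLAG and 50.1 ± 0.947 with anti-HMR. The 33 with GAGAG stood at 60.8 ± 1.01 and 58.4 ± 0.341. Since positions are relative to the other shared regions, the remaining territories must shift the other way, and the 132 regions of the arms stood at 40.5 ± 0.507 with anti-FLAG and 47.7 ± 1.99 with anti-HMR. The 140 regions at gene starts, at 48.3 ± 0.734 against 49.2 ± 0.50 (exact permutation p = 0.0857), did not differ beyond their spread. Nor did the 50 of the X, at 69.8 ± 3.75 against 73.1 ± 2.41 (exact permutation p = 0.286). The 6 regions on transposable elements stood at 66.4 ± 1.71 with anti-FLAG and 72.3 ± 5.58 with anti-HMR (exact permutation p = 0.114). The only Y region stood higher with anti-FLAG, at 15.2 ± 4.38 against 35.3 ± 9.80 (exact permutation p = 0.0571).

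**Figure D4:**
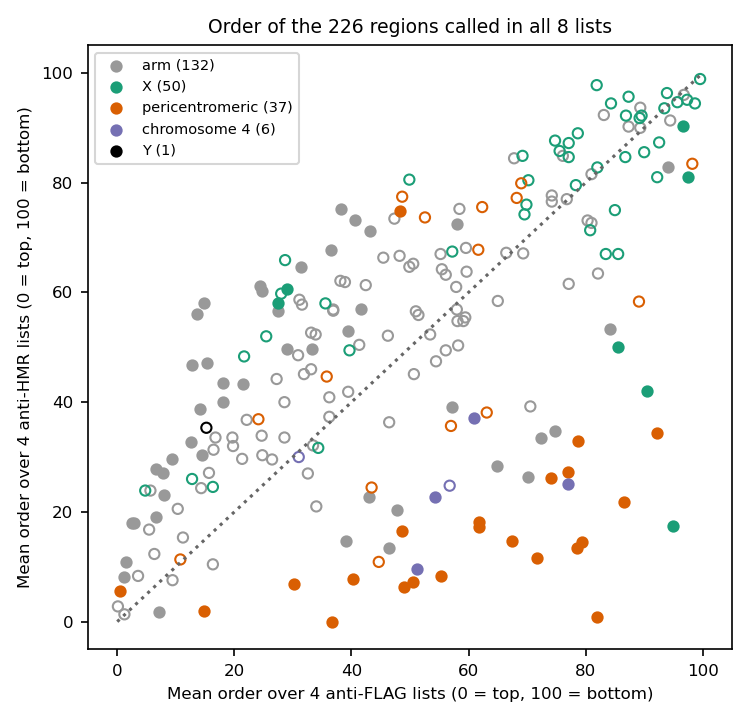
Mean order over the 4 anti-HMR lists against that over the 4 anti-FLAG lists for the 226 regions called in all 8 lists, coloured by territory, with filled points where the positions of the antibodies did not overlap (36 above and 41 below the diagonal). Pericentromeric regions lie mostly below the diagonal, which means nearer to the top with anti-HMR (20 filled points against 2).

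The regions at the top of all lists included the MtnA promoter (chr3R:9784355-9784603). It was at lines 1, 2, 1 and 1 of the anti-FLAG lists and at lines 56, 57, 3 and 3 of the anti-HMR lists of AL03, AL18, AL55 and AL63. The pMT vector carries the promoter of MtnA, so reads of the transgene and of the chromosomal copy cannot be told apart here. The other 4 leading shared regions were an intron of tun (chr2R:15848003-15848236, lines 4, 3, 6 and 4 with anti-FLAG and 10, 44, 5 and 5 with anti-HMR), the pericentromeric 3R region shown above (lines 2, 1, 4 and 2 against 89, 64, 24 and 13), the end of RabX5 with the start of RpL23A, a ribosomal protein gene (chr3L:1668654-1668911, lines 26, 26, 19 and 22 against 19, 31, 9 and 9), and a site near T48, which encodes a membrane protein of gastrulation (chr3R:26881454-26881671, lines 6, 4, 2 and 3 against 151, 127, 14 and 11). Anti-HMR AL55 placed 4 and AL63 all 5 of these among their first 14 lines, and anti-HMR AL03 and AL18 placed all 5 lower than they did.

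The shared regions that moved most towards anti-FLAG were promoters on the arms. They were the starts of RpS28a with Axn (chr3R:30022584-30022884), of CG6479 (chr3L:17339237-17339464), of Daxx, a histone H3.3 chaperone (chr2L:6480684-6480987), of Cyfip with Fkbp39 (chr3R:15333101-15333323) and of the tetraspanin gene Tsp96F (chr3R:25881393-25881678). RpS28a was at lines 89, 78, 18 and 18 of the anti-FLAG and 642, 941, 369 and 165 of the anti-HMR lists. Those that moved most towards anti-HMR included 4 pericentromeric sites. A site between genes in 3L heterochromatin (chr3L:28091217-28091577) was at lines 652, 251, 1113 and 543 with anti-FLAG and at 3, 3, 8 and 4 with anti-HMR. The starts of Tim17b, of the mitochondrial import machinery (chr3R:3734742-3735004), of ND-AGGG, of respiratory complex I (chr3L:24976075-24976317), and of CG41128 (chr3R:3750212-3750460) stood at lines 285 to 1137 with anti-FLAG and 49 to 232 with anti-HMR. The fifth was the upd2 site on X, at lines 1597, 458, 901 and 868 against 182, 60, 144 and 90. These regions were chosen by the size of the difference, so their values are a description.

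The region sets were then looked up in the lists of HMR-dC cells, which had no part in choosing them. Of the 298 anti-HMR regions, the anti-FLAG lists of HMR-dC chromatin AL02, AL20, AL56 and AL64 called 4, 2, 1 and 3, and the anti-HMR lists called 270, 255, 94 and 256. Of the 77 anti-FLAG regions, the anti-FLAG lists called 54, 37, 56 and 38, and the anti-HMR lists 33, 2, 7 and 6. Each set was thus called again mainly with the antibody it came from. In percent, the anti-HMR regions were found at 0.839% ± 0.433 with anti-FLAG and 73.4% ± 28 with anti-HMR, and the anti-FLAG regions at 60.1% ± 13.2 and 15.6% ± 18.4 (SD, n = 4 each). The difference between the sets, taken as anti-HMR minus anti-FLAG regions and compared between the antibodies, was -117.0 percentage points (exact permutation p = 0.02857) and lay between -128.8 and -89.3 with any library or preparation left out. It was -182.4 for regions called in 4 of 4 against 0 of 4 lists, where the anti-FLAG set is the single klar region, and -81.8 with the HMR-dC lists cut to the shortest, a choice made after the data had been seen. For comparison, these 8 lists called between 7.99% and 29.1% of all 10763 regions and between 60.6% and 100% of the 226 shared regions. The low value of anti-HMR AL56 (94 of 298) stood beside low values for the shared regions (60.6%) and for all regions (7.99%). An anti-FLAG library of HMR-FL cells from other chromatin, AL74, made with another kit, called 54 of the 77 and 1 of the 298 regions. The second library of that kit, anti-FLAG AL75 from HMR-dC cells with a list of 1093 peaks, called 15 of the 77 (19.5%) and 0 of the 298. This share of the 77 lay under that of each of the other anti-FLAG lists and under the 42.9% of anti-HMR AL02, beside 88.9% of the 226 shared regions.

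**Figure D5:**
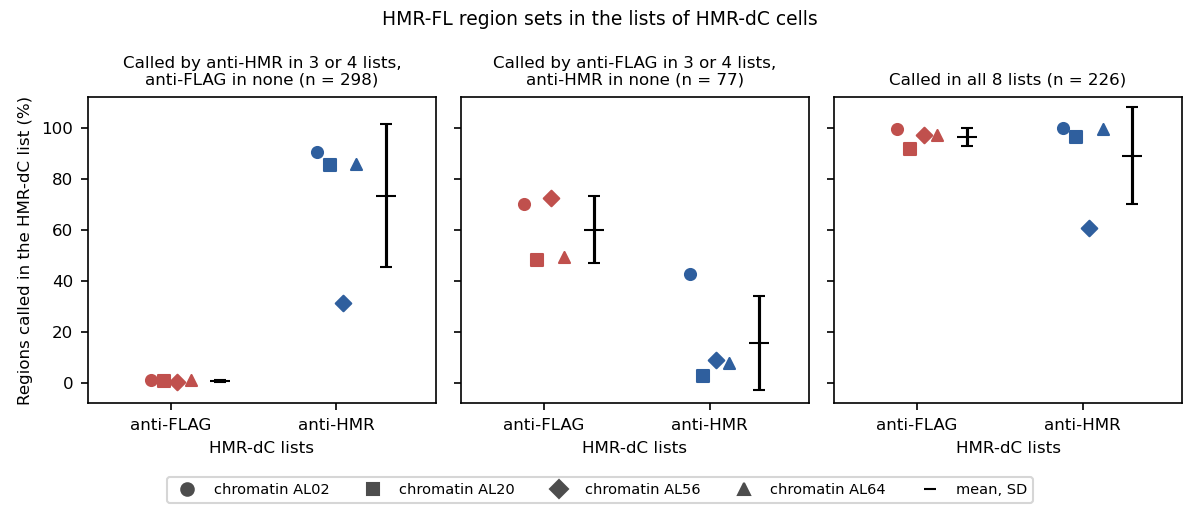
Share (%) of 3 region sets of HMR-FL cells that each HMR-dC list called, by antibody, with 1 point per chromatin and mean ± SD (n = 4) in black. Anti-HMR regions reach 31.5% to 90.6% with anti-HMR and at most 1.34% with anti-FLAG, and the 226 shared regions are called by both.

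Pericentromeric shares were also compared between constructs. In HMR-dC cells anti-FLAG and anti-HMR lists held 3.71% and 8.38% pericentromeric peaks. The difference between the antibodies (anti-FLAG minus anti-HMR) was -4.66 ± 2.49 points there and -1.24 ± 1.70 points in HMR-FL cells (SD, n = 4 preparations each). The 2 differences were 3.43 points apart (exact permutation p = 0.0857), 6.61 points over the first 465 lines and 4.36 points without HMR-dC chromatin AL02 (exact permutation p = 0.02857 in both). The gene start difference was alike, at 25.6 ± 10.1 points in HMR-FL and 27.4 ± 15.3 points in HMR-dC cells (exact permutation p = 0.914 for the difference, which does not show that they are equal).

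Genes of known factors were searched within 1 kb of their starts. Between 3.82% and 37.1% of the 13968 protein-coding genes had an anti-FLAG peak there, depending on the list, and between 5.96% and 39.0% an anti-HMR peak. Of 5 metallothionein genes only MtnA had a region, with both antibodies. Of 6 genes of the HMR complex (Hmr, Lhr, Nlp, Nph, Boh1 and Boh2), 4 had an anti-FLAG region and none an anti-HMR region. These 4 were Lhr, Nlp with its neighbour Nph, and Boh2, all in the list of AL55 alone. Of 15 genes of architectural and promoter factors, 14 had an anti-FLAG and 12 an anti-HMR region in any list, and 6 and 8 without the long lists of AL55. The share of all genes with a region in any list was not computed, so these counts cannot be set against the single-list shares above. Ibf1 and Ibf2, and likewise Nlp and Nph, share their regions. The su(Hw) gene had a region in 4 of 4 anti-HMR lists (lines 560, 334, 2320 and 406 of AL03, AL18, AL55 and AL63) and in 1 anti-FLAG list (line 3506 of AL55). Pita, which encodes an insulator-binding zinc finger protein, was called in 4 anti-HMR lists and in 3 anti-FLAG lists (lines 361, 417 and 388). BEAF-32 itself was called in 2 anti-FLAG lists and in no anti-HMR list, and mod(mdg4) and prod, a satellite-binding protein, in 3 anti-FLAG lists and in 2 and 1 anti-HMR lists. None of these presence patterns passes Fisher's test after adjustment.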

How the data were processed

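ChIP-seq peak lists of 8 HMR-FL libraries (4 anti-FLAG, 4 anti-HMR) and, as lists not used for choosing regions, 8 paired HMR-dC libraries and 2 NEBNext anti-FLAG libraries were read. As deposited by the authors, a list holds the position of each peak on dm6, 200 bp wide, with no score, signal or count. Reads (50 bp, single-end) were mapped with Bowtie2 2.2.9, filtered with SAMtools 1.3.1 at a mapping quality of 2, and peaks were called per replicate against the input with HOMER 4.9 (factor style, -F 2). Repeats are thus seen only in their mappable part. No list is sorted by position, so line order was taken as rank. Gene models and transposable elements came from the Ensembl annotation, release 115, and sequences from the RefSeq assembly of dm6. Midpoints set the territory and the start class. Libraries were paired by the input identifier in the labels, which was taken to mean that both precipitations came from 1 preparation. Tests were exact permutation tests and Fisher's test with Benjamini-Hochberg adjustment, written in Python 3.11.15 (numpy 2.4.6, scipy 1.17.1), and were tested on simulated lists. Regions were named as the leading 5 per class by mean line position or by order difference, with the leading region in each territory and regions near 3 gene lists. Members, lists and tests were chosen with earlier results of these data known. Alternatives were list length, distances, overlap, borders, ranks and libraries left out.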

Additional observations from a re-analysis of the deposited data

Results flagged for a closer look

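In groups of 4 lists, 3 values of 32 screened groups stood apart from the other 3 lists of their antibody, and chance sets apart about 1 group in 20. Anti-FLAG AL18, the shortest list, had the highest X share (24.3%) and the lowest gene start share (63.2%) of the anti-FLAG lists. Anti-HMR AL55, the longest list, had the highest share of peaks with GAGAG (20.9%) of the anti-HMR lists, against 21.5% of genome windows. One of 16 measures gave a different antibody difference in the 2 constructs by an exact permutation test. The share of peaks on transposable elements was 0.883 percentage points further to the side of anti-FLAG in HMR-FL than in HMR-dC cells (n = 4 preparations each, exact permutation p = 0.02857, 0.457 after adjustment over the 16 measures). In HMR-dC cells the shares were 1.56% with anti-FLAG and 2.41% with anti-HMR.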

How the results depend on the processing

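Differences are anti-FLAG minus anti-HMR in percentage points unless a count is named. With every list cut to its first 465 lines they were -7.31 (pericentromeric), -3.33 (chromosome 4), 4.30 (arms), -0.323 (transposable elements) and 1.61 (GAGAG), of which the first 2 then passed 0.05 and the last 3 changed sign, and the counts became 29 and 92 regions of one antibody alone and 11 and 12 shared regions in separate order. With 100 lines the values were -26.2 (pericentromeric), 27.5 (arms) and 4.25 (AGNNGGCGC), and with 200 lines -17.2 (pericentromeric), -4.88 (chromosome 4), 2.75 (X) and 18.9 (arms), all past 0.05. In the upper 50% of each list the arms gave 2.38 and transposable elements -0.797, of which only the second passed 0.05. Starts within 250 bp on each strand gave 6.99. Peaks at starts alone gave 4.24 (TATCGATA), 3.05 (GGTCACACT) and -1.45 (TGCATA), none of which passed 0.05, and peaks elsewhere -8.83 (TGCATA, no longer past 0.05) and 8.75 (AGNNGGCGC, now past it). The cut to 100 or 200 lines and the split by starts were chosen after the data were seen. Regions of anti-FLAG alone numbered 2 with an overlap of 100 bp, 77 with 3 of 4 lists and 0 when joined across 500 bp, and those of anti-HMR alone 298 with 3 of 4 lists and 98 with the lists of a chromatin cut to the shorter. The pericentromeric difference between constructs was 6.61 with lists cut to the shortest and 5.51 in their upper 50%. The HMR-dC recovery was -182.4 with 4 of 4 lists and -81.8 with lists cut to the shortest, both past 0.05. The cause of these changes was not tested.

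With the chromatin as a replicate block the differences are the same by construction, and with 4 pairs none can pass 0.05. Those that had passed were 25.6 (gene starts), 12.3 (divergent starts), 15.5 (CGATA), 6.54 (TATCGATA), 4.99 (GGTCACACT), -6.93 (TGCATA) and -117.0 (regions in HMR-dC lists). The block changed no other call.

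With 1 library or 1 preparation left out, the ranges of the differences were -2042 to 591.1 peaks for list length (above 0 only without anti-HMR AL55), -2.18 to -0.141 (pericentromeric), -0.739 to -0.204 (chromosome 4), 3.36 to 6.31 (X), -4.86 to -0.838 (arms), 21.2 to 28.8 (gene starts), 10.5 to 14.5 (divergent starts), -7.47 to 0.131 (between genes), -0.186 to 0.290 (transposable elements) and -0.0623 to 0.748 (GC content). For motifs they were 13.9 to 17.0 (CGATA), 5.59 to 7.91 (TATCGATA), -3.00 to -0.834 (GAGAG), -8.47 to -5.17 (TGCATA), 4.25 to 5.65 (GGTCACACT) and 1.12 to 3.65 (AGNNGGCGC). The excess of same-chromatin overlap ranged from 4.64 to 9.10, the regions of anti-FLAG alone from 1 to 75, those of anti-HMR alone from 166 to 275, the shared regions higher with anti-FLAG from 42 to 276 and with anti-HMR from 41 to 201, the HMR-dC recovery from -128.8 to -89.3 and the construct difference from 2.57 to 4.36. Transposable elements (-0.186, -0.000622, -0.0404, -0.141, -0.0470 and -0.00699), GC content (-0.0349, -0.0165 and -0.0623) and the share between genes (0.131) changed sign in this way without passing 0.05. With 1 preparation left out the smallest p is 0.1, so no antibody difference within HMR-FL can pass. The widest counts came without chromatin AL18.

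The read depth is unknown, lists hold no strength beyond their order, and 4 against 4 libraries give no p under 0.02857, so single regions cannot pass adjustment over 10763 tests. The list lengths, from 465 to 9049 peaks, limit what the absence of a peak can show.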

Other observations

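The place of a motif within the peak was looked at as the share of matches in the central 100 bp of the 200 bp peaks, on the lists of both antibodies. AGNNGGCGC lay most often near the centre, with 69.8% ± 6.72 of its matches in anti-FLAG and 67.1% ± 2.43 in anti-HMR peaks (SD, n = 4 each, exact permutation p = 0.486). For TGCATA the shares were 52.8% ± 2.06 and 57.5% ± 2.33 (exact permutation p = 0.0571, adjusted over 6 motifs 0.343), and for CGATA 62.4% ± 6.81 and 54.2% ± 5.56 (exact permutation p = 0.171). None of the 6 motifs passed 0.05. Among transposable elements, INE-1 was touched by 0.616% ± 0.0464 of anti-FLAG and 0.540% ± 0.105 of anti-HMR peaks (exact permutation p = 0.20), and the element 1360 by 0.0969% ± 0.0757 and 0.135% ± 0.113 (exact permutation p = 0.571).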
